A study of Mus musculus with 16 samples.

Results

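The strain dependence of the response to BMS493 was measured as an interaction: the change in A/J fetal lung minus the change in B6 fetal lung, gene by gene. All 16 of the 16 libraries of the series enter it, 4 in each of 4 groups. The strains were C57BL/6J (B6) and A/J, and the series' design text gives the fetuses as male. Pregnant dams of each strain were dosed by mouth between E9.5 and E14.5 (embryonic days), either with BMS493 at 3.75 µg per g per day or with corn oil. RNA was taken from lung at E14.5. The labels name no engineered allele, and the BMS493 reached the fetus through the dam. Which fetuses came from the same dam is not given, so the p-values measure the spread between these libraries, which may be smaller than the spread between litters.

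BMS493, a pan-RAR inverse agonist, binds the retinoic acid receptors and favours the repressed state of their target genes. Retinoic acid is made from vitamin A by retinol and retinaldehyde dehydrogenases and is cleared by the Cyp26 enzymes. Lrat and Dhrs3 divert vitamin A away from retinoic acid. These genes, Cyp26b1 and Rarb are well-known targets that retinoic acid switches on. In the embryonic lung retinoic acid is needed for the budding of the lung primordium and holds back smooth muscle differentiation around the airways. A/J is an inbred strain known for airway hyperresponsiveness, and B6 is a comparatively hyporesponsive strain.

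Between 15207539 and 24146224 fragments per library were assigned to genes, 71.7% to 76.9% of all fragments. After a filter on low counts 17276 genes were tested. Levels below are CPM, each gene's count scaled to the depth of its library. Changes are log2 fold changes with their standard error (SE), and a gene was called at a Benjamini-Hochberg adjusted p under 0.05 in edgeR's quasi-likelihood test over all tested genes. B6 BMS493 replicates 2 and 3 stood apart: they had the lowest quality weights of the 16 libraries in a limma voom fit, 0.403 and 0.274. A/J control replicate 4 came next, at 0.493, with the lowest summed collagen level. In B6 BMS493 replicate 2 the summed level of 22 distal tip and surfactant genes was 2758 CPM, against 1558 to 2211 CPM in the other libraries, and the ciliated cell factor Foxj1 was at 15.9 CPM, against 0.302 to 6.54 CPM elsewhere. In B6 BMS493 replicate 3 the summed level of 37 collagen genes was 23680 CPM, against 9391 to 16420 CPM in the others. For genes below with an unadjusted interaction p under 0.05 whose value moved by over 1.5 times without both, that value is given too. In bulk tissue, fewer cells of a type and less RNA per cell cannot be told apart.

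The interaction was called for 1 gene, Gbp2, which is 0.00579% of those tested. An unadjusted p under 0.05 was reached by 636 genes, 3.68% of those tested. These split into 338 below 0 (1.96%), the direction of a deeper fall or a smaller rise in A/J, and 298 above 0 (1.72%). Of the 636, 588 were called in neither strain, and in 532 the strains' estimates had opposite signs, which choosing genes by the interaction favours. The median interaction over all tested genes was -0.01, with a median SE of 0.164. The count of calls moved with the method: DESeq2 and limma voom each called 2 genes, Gbp2 and Lrat, and edgeR without the filter on low counts called 12.

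The genes that responded in both strains together give a closer view. The average effect, the mean of the B6 and A/J changes, was called for 237 genes (1.37%), of which 189 were lower (1.09%) and 48 were higher (0.278%) with BMS493. The average is orthogonal to the interaction in this balanced design, although both come from the same libraries and the same estimate of spread. In the 189 lower genes the median change was -0.40 in B6 and -0.40 in A/J. In the 48 higher genes it was 0.42 in B6 and 0.39 in A/J. All 237 had the same sign in both strains, which choosing genes by the average favours. By itself the B6 effect was called for 73 genes (0.423%), 60 lower (0.347%) and 13 higher (0.0752%). The A/J effect was called for 84 (0.486%), 73 lower (0.423%) and 11 higher (0.0637%).

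Among the 237, 33 genes (13.9%) had an unadjusted interaction p under 0.05, against 3.68% of all tested genes. None of the 33 except Gbp2 was called, with adjusted p-values from 0.0834 to 0.999. Of the 31 lower genes among them, 16 fell more in A/J by estimate and 15 more in B6, a nearly even split. Both higher genes among the 33, the mast cell proteases Cma1 and Cpa3, had the larger estimate in A/J. The same comparison was made across separate libraries, taking genes by the average effect in one set of library numbers and the interaction from the other set. Library numbers 1 to 8 (replicates 1 and 2 of every group) gave 97 genes. Of these, 9 (9.28%) had an interaction p under 0.05 in library numbers 9 to 16, against 2.21% of all genes. Library numbers 9 to 16 gave 38 genes, of which 9 (23.7%) did so in library numbers 1 to 8, against 5.22% of all genes.

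**Figure D1:**
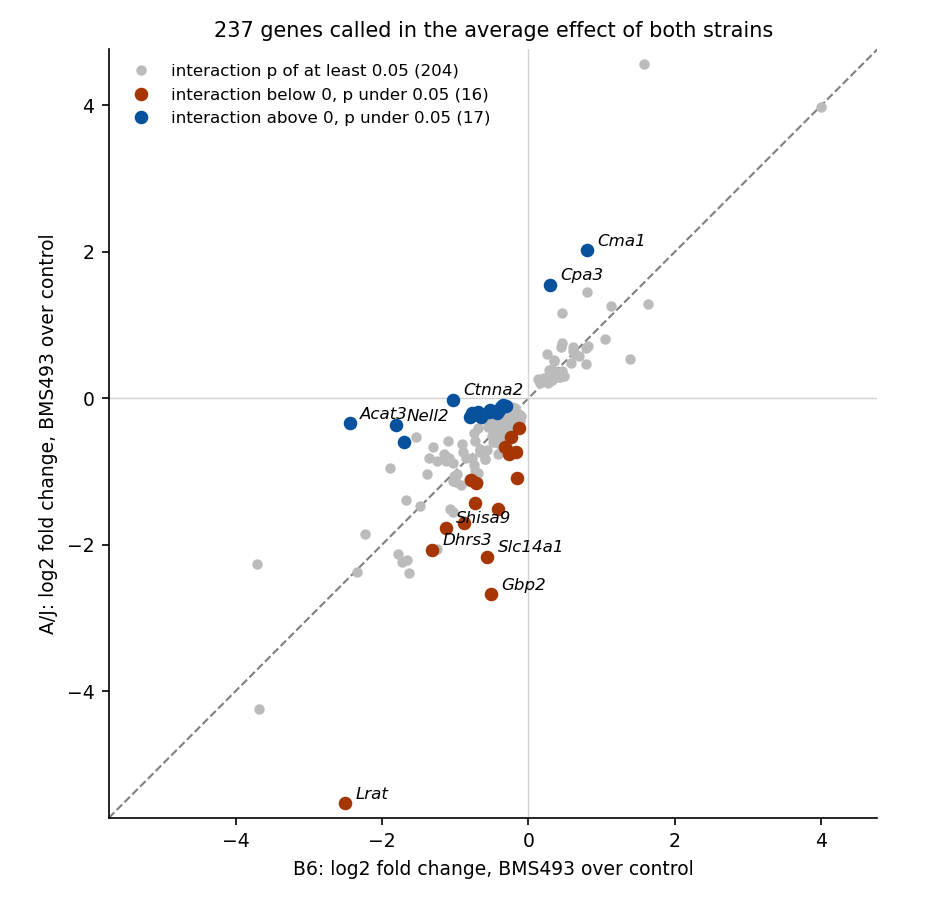
Log2 fold change with BMS493 in B6 (horizontal axis) and in A/J (vertical axis) for the 237 genes called in the average effect, 1 point per gene, with the line of equal change dashed. The 16 orange points lie below the line with an interaction p under 0.05, Gbp2 and Lrat farthest from it, the 17 blue points lie above it, and the 204 grey points did not reach that p.

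The guanylate-binding proteins, interferon-inducible GTPases that act against microbes inside cells, held the called gene. Gbp2 was at 2.01, 3.02, 2.42 and 2.49 CPM in the 4 B6 control libraries and at 1.77, 2.11, 1.54 and 1.49 CPM in the 4 B6 BMS493 libraries. A/J levels were 9.5, 9.65, 10.8 and 11.9 CPM in controls and 2.18, 1.41, 1.63 and 1.31 CPM with BMS493. All 4 A/J control libraries stood above the other 12, and the 2 BMS493 groups overlapped. Gbp2 fell by 2.67 (SE 0.187) on the log2 scale in A/J, with an adjusted p of 1.67e-09 by edgeR's quasi-likelihood test. In B6 the estimate was -0.51 (adjusted p = 0.42). The interaction was -2.16 (SE 0.278, adjusted p = 0.000736). Between control lungs A/J exceeded B6 by 2.06 on the log2 scale, and between BMS493 lungs the difference was -0.10 (adjusted p = 0.801); these share their libraries with the effects above.

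The interaction of Gbp2 was between -2.33 and -2.04 when each library was left out in turn, and it stayed called in each. Without both B6 BMS493 replicates 2 and 3 it was -2.06 (adjusted p = 0.00707). Within library numbers 1 to 8 it was -2.04 and within 9 to 16 it was -2.25, but with 2 libraries per group neither was called (adjusted p = 0.397 and 0.837). Over the 28 alternatives the adjusted p began at 1.66e-09, and the gene was called in 26 of them. The 5 genes most like Gbp2 over the 16 libraries, by Pearson r of log2 CPM after each strain's mean was subtracted, were Gbp2b (0.953), Lrat (0.935), Slc14a1 (0.897), Shisa9 (0.891) and Ccbe1 (0.888). All 16 points share the treatment groups. Gbp2b had almost no counts in B6, so its r rests mainly on the A/J libraries. The microRNA gene Mir6381 overlaps Gbp2 on the opposite strand.

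The promoters of 4 neighbouring members on chromosome 3 are shown because each of these genes was lower in every A/J BMS493 library than in every A/J control, and because they carry a shared element. They are the 250 bases upstream of a RefSeq start in the GRCm38.p6 assembly, which is the B6 reference; the A/J sequence was not used here. Gbp3 has 2 RefSeq starts, and the window of the other one (chr3:142560106-142560355) held no match. Capitals mark matches to TTTCNNTTTC, searched on both strands, the repeat that forms the core of the interferon-stimulated response element. The Rarb promoter is added as the retinoid counterpart, with capitals on its DR5 element, a pair of receptor half-sites in direct repeat, also searched on both strands.
Gbp2, chr3:142620413-142620662, plus strand: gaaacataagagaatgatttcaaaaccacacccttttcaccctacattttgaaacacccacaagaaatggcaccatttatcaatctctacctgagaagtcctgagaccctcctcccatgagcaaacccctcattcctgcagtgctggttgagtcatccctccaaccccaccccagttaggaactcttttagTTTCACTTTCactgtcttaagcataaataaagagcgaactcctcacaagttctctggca
Gbp2b, chr3:142594597-142594846, plus strand: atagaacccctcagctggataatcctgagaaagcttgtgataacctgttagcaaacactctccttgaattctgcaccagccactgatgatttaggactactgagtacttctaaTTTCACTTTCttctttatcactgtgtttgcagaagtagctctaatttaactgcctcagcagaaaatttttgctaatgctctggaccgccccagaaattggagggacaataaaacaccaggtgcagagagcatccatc
Gbp3, chr3:142559794-142560043, plus strand: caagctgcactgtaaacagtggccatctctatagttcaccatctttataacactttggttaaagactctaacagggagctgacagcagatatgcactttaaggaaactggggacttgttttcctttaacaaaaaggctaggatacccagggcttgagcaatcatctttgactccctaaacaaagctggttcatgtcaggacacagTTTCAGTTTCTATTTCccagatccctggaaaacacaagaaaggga
Gbp5, chr3:142496684-142496933, plus strand: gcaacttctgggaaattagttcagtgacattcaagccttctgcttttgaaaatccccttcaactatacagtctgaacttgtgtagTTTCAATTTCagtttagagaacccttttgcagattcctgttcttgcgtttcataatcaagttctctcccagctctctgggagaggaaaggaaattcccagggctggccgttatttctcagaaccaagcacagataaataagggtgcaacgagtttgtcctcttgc
Rarb, chr14:16575477-16575726, minus strand: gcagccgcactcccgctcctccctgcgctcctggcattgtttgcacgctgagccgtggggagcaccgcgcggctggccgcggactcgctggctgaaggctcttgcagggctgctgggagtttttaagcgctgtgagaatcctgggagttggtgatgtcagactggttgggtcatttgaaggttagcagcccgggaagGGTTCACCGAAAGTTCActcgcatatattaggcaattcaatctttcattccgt

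The matches begin 59 bases before the start in Gbp2, 137 in Gbp2b, 45 and 39 in Gbp3 and 165 in Gbp5, and the DR5 element begins 53 bases before the start of Rarb. TTTCNNTTTC occurred in the windows of 3.46% of the 27025 genes in the table. It occurred in all 5 of the tested guanylate-binding protein genes that had an entry, including Gbp7, whose interaction was -0.22 (SE 0.313). The DR5 pattern occurred in 0.104% of genes, in none of these 5, and in no window of Lrat or Dhrs3. TTCNNNGAA, the palindrome bound by STAT factors, occurred in 2 of the 5 (Gbp5 and Gbp7) and in 8.13% of genes; 1 of its matches overlaps the DR5 element of Rarb. Of the 16 lower average-effect genes below 0 in the interaction at an unadjusted p under 0.05, 9 had an entry and 2 held TTTCNNTTTC, Gbp2 and Dhrs3. These are matches of letters in a window, not measured sites.

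Of the family's 12 genes, 11 had counts, 8 passed the filter and 7 of these 8 had an interaction below 0. Their median was -0.77, against -0.01 over all genes, with medians of 0.06 in B6 and -1.02 in A/J. All of these medians include Gbp2b, whose change in B6 cannot be read, as given below. Gbp2 and 2 other members reached an unadjusted p under 0.05, against 1.96% of all tested genes in that direction. Gbp2, Gbp2b and Gbp5 were called lower in A/J, against 0.423% of all tested genes. Gbp2b entered the test only through A/J, where its controls are high, so it adds nothing to that comparison. Gbp2 and Gbp5 were not called in B6, and Gbp2b was too low there to be called. Gbp5 was at 2.41, 1.34, 2.78 and 2.04 CPM in A/J controls and at 0.603, 0.616, 0.465 and 0.302 CPM with BMS493, groups that did not overlap. It fell by 2.09 in A/J (adjusted p = 0.0149). In B6 its levels ran from 0.155 to 0.661 CPM in controls and from 0.101 to 0.761 CPM with BMS493, which overlapped, and the interaction was -1.73 (SE 0.677, adjusted p = 0.999).

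Gbp3 was at 3.86, 5.07, 4.37 and 4.42 CPM in A/J controls and at 2.23, 2.42, 2.33 and 1.96 CPM with BMS493, and at 0.861 to 2.96 CPM in all B6 libraries. Its interaction was -1.16 (SE 0.385, adjusted p = 0.999), and its A/J change of -0.99 was not called (adjusted p = 0.108). Gbp2b was at 7.09, 7.27, 7.65 and 7.09 CPM in A/J controls and at 1.02, 1.06, 0.837 and 1.51 CPM with BMS493, and it fell by 2.72 in A/J (adjusted p = 5.06e-07). In B6 it had 3 counts in all 4 controls together and 0 in the BMS493 libraries, a level at which no fold change in B6, and so no interaction, can be read. Gbp2b passed the filter through A/J alone, and the count and median of 8 include its fitted value of 0.11; all of the other 7 lay below 0, with Gbp3 at their middle. Gbp4, Gbp7, Gbp8 and Gbp9 had interactions of -0.38, -0.22, -1.23 and -0.18, with SEs of 0.399, 0.313, 1.01 and 0.342. Without both B6 BMS493 replicates 2 and 3 the family's median was -0.42, with Gbp5 at -0.83 and Gbp3 at -0.82. Replicate 2 alone moved Gbp5 to -0.86 and Gbp3 to -0.77 when left out. The family's median was -0.33 without A/J control replicate 4 and -0.43 in the stranded count column, where Gbp3 was at -0.56. Of the 50-base windows of Gbp2 transcripts 2.03% occur in another gene, most often Gbp2b, against 3.75% for Gbp3 and 12.7% for Gbp7. Multimapping fragments took 3.62% to 4.06% of A/J libraries and 2.81% to 3.29% of B6 libraries. Whether this, or variants between A/J reads and the reference, bears on these levels was not tested.

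**Figure D2:**
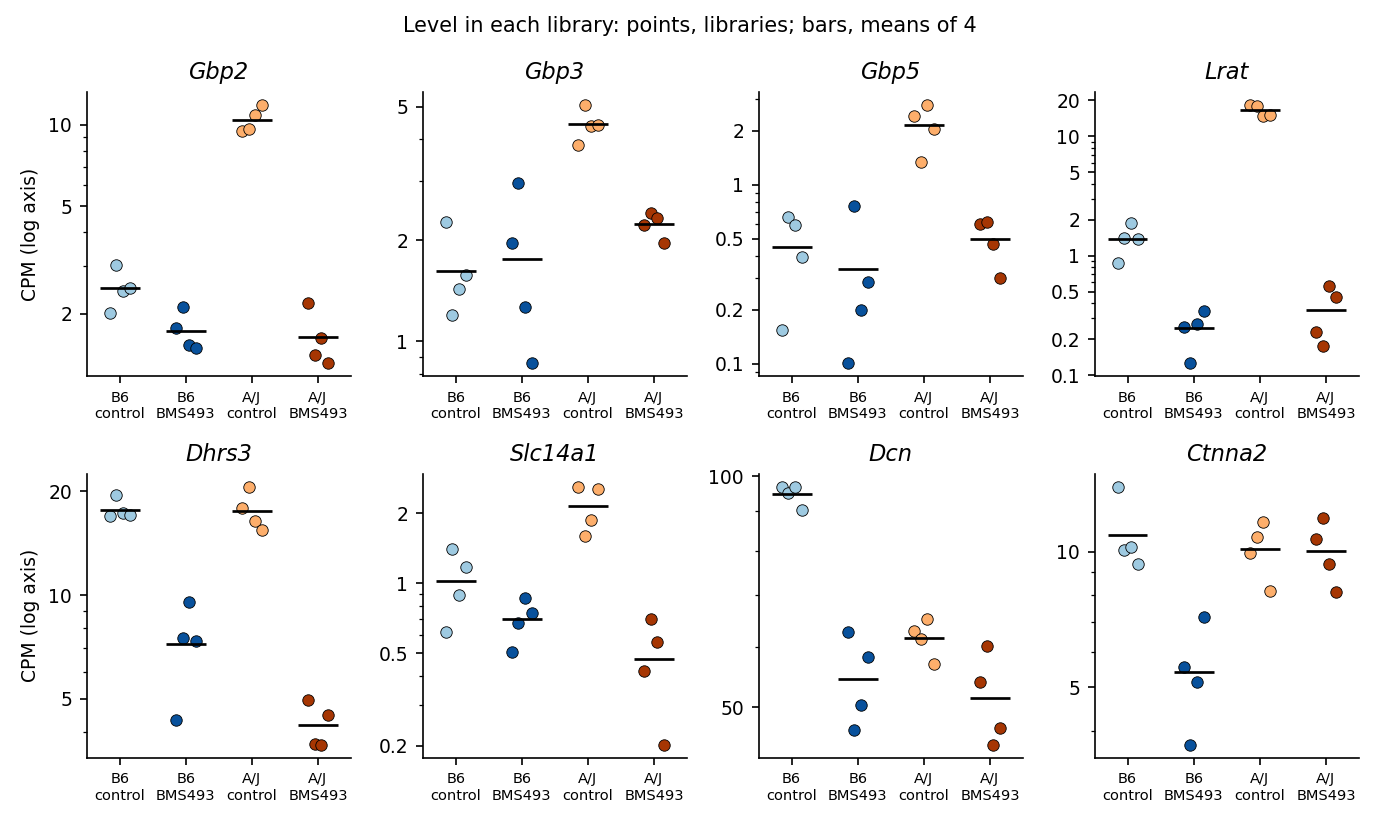
CPM of 8 genes (log axis) in each library by group, with bars at the mean of 4. Gbp2, Gbp3, Gbp5 and Lrat are high in A/J controls and near or within the B6 range with BMS493; Dhrs3 starts level in both strains, Dcn is highest in B6 controls and Ctnna2 is lowest in B6 BMS493.

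Other interferon-linked genes gave no call. Of 41 tested interferon-stimulated genes outside the GTPase families, 32 had an interaction below 0, with a median of -0.23, from 0.24 in B6 and -0.01 in A/J. None was called in either strain. Oasl2 (-1.71, SE 0.559) and Oas1b (-1.40, SE 0.633), both of the antiviral oligoadenylate synthetase family, and Socs1 (0.51, SE 0.196), an inhibitor of cytokine receptors, had an unadjusted p under 0.05, against 3.68% of all tested genes. Oasl2 was at -0.44 without both B6 BMS493 replicates 2 and 3. The median was -0.08 without replicate 2 and 0.05 without both. In replicate 2 the list's summed level was 480.7 CPM, against 302.7 to 380.1 CPM in the other 15 libraries. The 7 tested immunity-related GTPases, the sister family of interferon-inducible GTPases, had a median of 0.04. That median was -0.09 without B6 BMS493 replicate 3 and 0.11 without B6 control replicate 1. It was -0.21 in library numbers 1 to 8, 0.21 in 9 to 16 and -0.18 in the stranded count column. Of 16 tested genes of the H2 locus, which encodes antigen-presenting proteins, 11 lay below 0 with a median of -0.34. H2-Eb1 (-2.27, SE 0.751) and H2-T24 (-0.83, SE 0.356) led them, but in the stranded count column H2-T24 was at -0.02. The median of the H2 genes was -0.18 without both B6 libraries and -0.17 without A/J control replicate 1.

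Of 21 tested genes of retinol storage and retinoic acid synthesis 2 had an unadjusted interaction p under 0.05, Lrat and Dhrs3, against 3.68% of all tested genes. None of the 16 tested receptors and coregulators and none of the 7 tested uptake and binding genes did. Lrat, the enzyme that turns retinol into retinyl esters for storage, was at 0.876, 1.41, 1.88 and 1.38 CPM in B6 controls and at 0.253, 0.127, 0.267 and 0.345 CPM in B6 with BMS493. A/J levels were 18.2, 18.0, 14.7 and 15.2 CPM in controls and 0.232, 0.176, 0.558 and 0.453 CPM with BMS493. The A/J controls were above all other libraries, the B6 controls stood above both BMS493 groups, and the BMS493 groups overlapped. Lrat fell by 2.51 in B6 (adjusted p = 0.000514) and by 5.53 in A/J (adjusted p = 3.21e-13). Both strains ended at very low counts, with BMS493 means of 0.248 CPM in B6 and 0.355 CPM in A/J. Control means were 1.38 CPM in B6 and 16.5 CPM in A/J. How far the Lrat interaction restates this difference between controls was not tested. The interaction of -3.02 (SE 0.545) had the second lowest p of all genes and an adjusted p of 0.0834. It was called by DESeq2 (adjusted p = 1.94e-05), by limma voom (0.0167), without the filter (0.000337), and without B6 control replicate 3 (0.036) or A/J BMS493 replicate 3 (0.0327). Over all 28 alternatives the estimate ran from -3.83 to -2.47 and the adjusted p from 1.94e-05 to 1.

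Rbm46, an RNA-binding protein gene next to Lrat on chromosome 3, had 14.2 ± 2.06 CPM in B6 controls and 8.66 ± 2.54 CPM with BMS493 (mean ± SD, n = 4 each). In A/J the means were 43.8 ± 5.77 and 16.2 ± 2.08 CPM (n = 4 each). It fell in both strains, by 0.74 in B6 (adjusted p = 0.0441) and by 1.43 in A/J (adjusted p = 5.88e-06), and the interaction was -0.69 (SE 0.219, adjusted p = 0.999; called without the filter, adjusted p = 0.0466). The antisense gene Rbm46os overlaps Lrat on the opposite strand, and fragments the authors' counting found ambiguous between genes are not in these counts.

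Dhrs3, which reduces retinaldehyde back to retinol, started level in the strains. It was at 17.0, 19.5, 17.3 and 17.1 CPM in B6 controls and at 17.9, 20.6, 16.4 and 15.4 CPM in A/J controls. With BMS493 it was at 4.34, 7.53, 9.54 and 7.35 CPM in B6 and at 4.96, 3.70, 3.67 and 4.48 CPM in A/J, where 1 B6 library lay within the A/J range. Dhrs3 fell by 1.31 in B6 (adjusted p = 8.94e-05) and by 2.07 in A/J (adjusted p = 2.39e-08), with an interaction of -0.76 (SE 0.229, adjusted p = 0.999). Without both B6 BMS493 replicates 2 and 3 the interaction was -0.45.

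Cyp26b1, an enzyme that degrades retinoic acid, had the deepest B6 fall of these genes, from 18.2 ± 5.14 to 1.47 ± 0.667 CPM, and in A/J from 19.9 ± 5.72 to 1.05 ± 0.276 CPM (mean ± SD, n = 4 each). It fell by 3.68 in B6 and by 4.24 in A/J (adjusted p = 2.51e-06 and 8.22e-08), and the interaction was -0.56 (SE 0.436). It was -0.24 without B6 BMS493 replicate 3, -0.37 without A/J control replicate 1 and -0.26 without both B6 BMS493 replicates 2 and 3. Rarb, a receptor induced by its own ligand, fell by 1.02 in B6 and by 1.56 in A/J (adjusted p = 0.019 and 9.11e-05), with an interaction of -0.53 (SE 0.29), which was -0.23 without B6 BMS493 replicate 3 and -0.31 without both. Part of the Rarb transcript sequence, 34.1% of its 50-base windows, also occurs in another gene, most often Top2b. Stra6, the cell-surface importer of retinol, fell by 1.15 in B6 (adjusted p = 0.0268), and its A/J estimate of -0.76 was not called (adjusted p = 0.172). Its interaction was 0.39 (SE 0.321), 0.12 without B6 BMS493 replicate 2 and 0.60 without replicate 1, so the difference between the strains was not shown.

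No call was made for the genes upstream in the pathway. Rdh10 and Aldh1a2, which make retinoic acid, were at 0.04 (SE 0.135) and 0.22 (SE 0.237). Aldh1a2 ran from 0.04 without B6 BMS493 replicate 2 to 0.36 without B6 BMS493 replicate 4. Rara and Rarg, the other two receptors, were at 0.08 (SE 0.101) and 0.17 (SE 0.126), and the intracellular carrier Crabp2 at -0.19 (SE 0.37). Rara ran from 0.01 without A/J control replicate 4 to 0.13 without A/J BMS493 replicate 3, and Rarg was at 0.08 without B6 control replicate 2. Over the 23 tested of 28 known retinoic acid targets the median change was -0.33 in B6 and -0.33 in A/J, and 6 were called lower in each strain, against 0.347% and 0.423% of all tested genes. Their median interaction was -0.02 (from -0.13 to 0.02 with each library left out), with 13 below 0, and Lrat and Dhrs3 were again the 2 with an unadjusted p under 0.05. The 17 tested Hox genes, a developmental target family, had medians of -0.32 in B6 and -0.43 in A/J and a median interaction of 0.01. That median ran from -0.10 to 0.18 with each library left out (without B6 BMS493 replicate 2 and replicate 1) and was -0.17 without both B6 BMS493 replicates 2 and 3.

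The other genes that fell more in A/J by estimate had varied roles. Slc14a1, a urea transporter, was at 0.619, 1.41, 0.890 and 1.18 CPM in B6 controls and at 0.505, 0.676, 0.868 and 0.747 CPM in B6 with BMS493. In A/J it went from 2.60, 1.60, 1.87 and 2.55 CPM to 0.417, 0.704, 0.558 and 0.202 CPM. The A/J groups were apart and the B6 groups overlapped, and the interaction was -1.60 (SE 0.505, adjusted p = 0.999). Shisa9 (-0.64), a modulator of glutamate receptors, Ccbe1 (-0.44), which is needed for lymphatic vessel growth, and Cd38 (-0.33), an enzyme that consumes NAD, fell in both strains. For Ccbe1 the falls were 0.71 in B6 and 1.16 in A/J (adjusted p = 0.00143 and 5.06e-07). Neto1 (-0.83), Neurl3 (-1.10), the epithelial sodium channel subunit Scnn1g (-0.94), the complement protease Cfi (-0.49), the phosphatase Dusp10 (-0.56), Lbh (-0.34), the calcium release channel Itpr1 (-0.28) and Gm20186 (-0.28) were called lower in A/J and not in B6. The difference for each of these had an adjusted p of 0.999. Without both B6 BMS493 replicates 2 and 3 it was -0.23 for Neurl3 (-0.72 without replicate 3 alone), -0.56 for Scnn1g and -0.53 for Neto1. Of the 50-base windows of Gm20186, 77.2% occur in another gene, most often Gm26809.

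The genes that fell more in B6 by estimate began with Dcn. Dcn, the collagen-binding proteoglycan decorin, was at 96.8, 95, 96.9 and 90.3 CPM in B6 controls and at 62.8, 46.7, 50.3 and 58.1 CPM with BMS493. The A/J levels were 62.9, 61.3, 65.2 and 57.0 CPM in controls and 53.9, 60.1, 44.7 and 47.0 CPM with BMS493. The B6 controls were above all other 12 libraries. Dcn fell by 0.80 in B6 (adjusted p = 2.46e-05), while the A/J estimate was -0.26 (adjusted p = 0.36), and the interaction was 0.54 (SE 0.125, adjusted p = 0.803). It was called without the filter on low counts (0.55, adjusted p = 0.00236). Its neighbour on chromosome 10, the related proteoglycan gene Lum, started level, at 35.1 ± 2.37 CPM in B6 and 34.5 ± 2.51 CPM in A/J controls. With BMS493 it was at 21.9 ± 4.03 and 30.4 ± 3.24 CPM (mean ± SD, n = 4 each). Lum fell by 0.68 in B6 (adjusted p = 0.0019), and its interaction was 0.50 (SE 0.15, adjusted p = 0.999), or 0.31 without both B6 BMS493 replicates 2 and 3.

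Ctnna2, an alpha-catenin of neurons, also started level. It was at 14, 10.1, 10.2 and 9.38 CPM in B6 controls and at 5.55, 3.72, 5.14 and 7.18 CPM in B6 with BMS493. In A/J it was at 9.94, 10.8, 11.7 and 8.17 CPM in controls and at 10.7, 11.9, 9.39 and 8.16 CPM with BMS493. Only the 4 B6 BMS493 libraries stood below the rest. Ctnna2 fell by 1.03 in B6 (adjusted p = 0.00476), the A/J estimate was -0.02, and the interaction was 1.01 (SE 0.242, adjusted p = 0.803). It too was called without the filter (1.02, adjusted p = 0.00373). Its estimate was 1.5 in library numbers 1 to 8 and 0.48 in 9 to 16, and 0.77 without both B6 BMS493 replicates 2 and 3. The gene Lrrtm1 overlaps Ctnna2 on the opposite strand.

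The secreted neural protein Nell2 (1.45, SE 0.472) and the synaptic adhesion protein Lrfn2 (1.10, SE 0.411) were called lower in B6 and not in A/J. So were the adhesion molecule Cadm3 (0.56), the ion channel Trpm5 (0.40), the growth factor Tgfb3 (0.25) and Actg2, the enteric smooth muscle actin (0.24). Creb3l1 (0.23), Wasf3 (0.36), Rbpms2 (0.37), Islr (0.20) and Lhfpl2 (0.25) followed the same pattern. Each of these differences had an adjusted p of 0.999. They were 0.73 for Lrfn2, 0.30 for Cadm3, 0.14 for Tgfb3 and 0.18 for Wasf3 without both B6 BMS493 replicates 2 and 3. Acat3 had an interaction of 2.10, but 52.5% of its windows occur in other genes, mostly Acat2, it overlaps Tcp1 on the opposite strand, and in the stranded count column its interaction was -0.01. All 33 genes kept their sign in both sets of library numbers, which are parts of the data that chose them, and without both B6 BMS493 replicates 2 and 3.

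**Figure D3:**
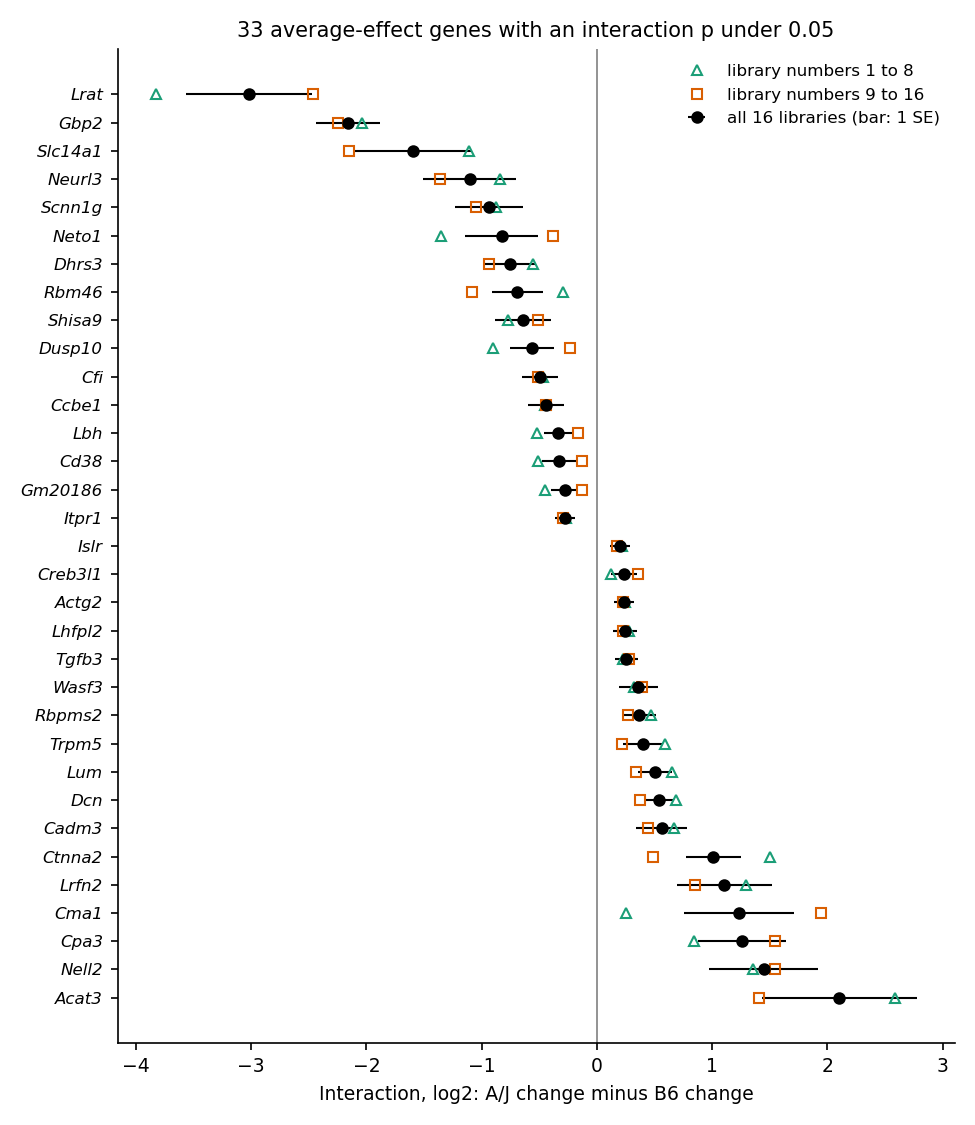
Interaction (log2, A/J change minus B6 change) of the 33 average-effect genes with an unadjusted p under 0.05: filled points with 1 SE from all 16 libraries, open triangles from library numbers 1 to 8 and open squares from 9 to 16. The open symbols lie on the same side of 0 as the filled point for each gene, with the widest gaps for Lrat, Cma1, Acat3, Ctnna2, Slc14a1 and Neto1.

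Mast cell genes were the list with the highest median interaction among those with at least 5 tested members. Mast cells are tissue-resident immune cells that store proteases and histamine in granules. Cpa3, carboxypeptidase of the granules, was at 2.78, 2.27, 3.61 and 3.61 CPM in B6 controls and at 2.98, 4.02, 2.47 and 5.40 CPM in B6 with BMS493. In A/J it was at 1.64, 1.99, 2.60 and 2.89 CPM in controls and at 4.5, 4.62, 9.63 and 7.96 CPM with BMS493. The A/J groups did not overlap and the B6 groups did. Cpa3 rose by 1.55 in A/J (adjusted p = 0.0032), the B6 estimate was 0.29 (adjusted p = 0.785), and the interaction was 1.26 (SE 0.384, adjusted p = 0.999; called without the filter, adjusted p = 0.0488).

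Chymase, Cma1, was at 0.928, 1.82, 2.52 and 2.29 CPM in B6 controls and at 2.27, 4.06, 2.00 and 4.65 CPM with BMS493, and in A/J it went from 1.16, 0.823, 1.18 and 0.908 CPM to 2.32, 3.08, 6.19 and 5.14 CPM. It rose by 2.03 in A/J (adjusted p = 0.00281) and the interaction was 1.23 (SE 0.479, adjusted p = 0.999), with 0.26 in library numbers 1 to 8 and 1.94 in 9 to 16. The tryptase Tpsb2 rose by 1.49 in A/J (adjusted p = 0.033; interaction 1.18, SE 0.485). Hdc, which makes histamine, had an A/J estimate of 1.84 (adjusted p = 0.0625; interaction 1.38, SE 0.592, and 0.85 without A/J BMS493 replicate 3).

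Of the 18 mast cell markers 8 passed the filter, and these 4 of the 8 had an unadjusted p under 0.05 above 0, against 1.72% of all tested genes. In A/J 3 of them were called higher, against 0.0637% of all tested genes. The list's median was 0.72, from 0.12 in B6 and 0.85 in A/J, and it was 0.25 within library numbers 1 to 8 and 0.89 within 9 to 16. The other tested members are shared with other cell types: the receptor Kit (-0.19, SE 0.164), Gata2 (0.26, SE 0.208), Srgn (0.08, SE 0.226) and Slc18a2 (0.05, SE 0.32). Mrgprb1 was at 0 in every library, the IgE receptor gene Fcer1a had 2 counts in all, and the receptor's beta chain Ms4a2 did not pass the filter. The part of cell numbers in these levels was not tested.

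**Figure D4:**
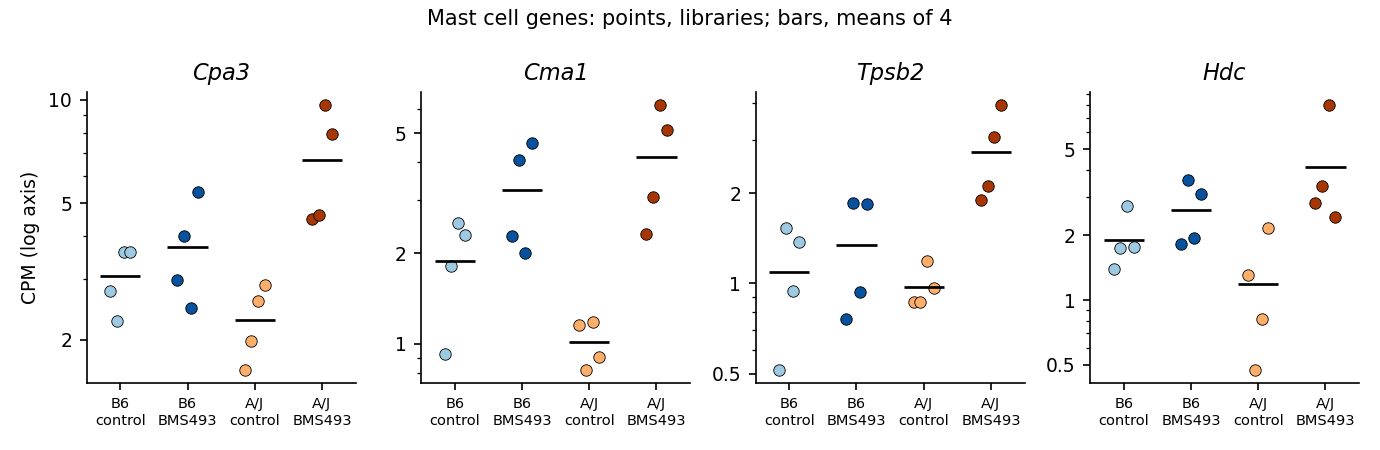
CPM of 4 mast cell genes (log axis) in each library by group, with bars at the mean of 4. For Cpa3, Cma1, Tpsb2 and Hdc the A/J BMS493 libraries lie above the A/J controls, while the B6 groups overlap.

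Apart from Gbp2 and Lrat, the 10 lowest p-values on each side gave 18 genes, with adjusted p-values from 0.803 to 0.999. Without the filter 6 of the 18 were called: Dcn and Ctnna2 as given above, Cpm (adjusted p = 0.0032), Klf11 (0.0204), Dact1 (0.0397) and Mgea5 (0.0488). The other genes of the 12 called in that fit of 34971 genes were Gbp2, Lrat, Rbm46, Cpa3, Sulf1 and Eps8l1, the last 2 named for completeness after their values were seen. Dcn and Ctnna2, described above, are 2 of them and had the same sign in both strains. In the other 16 the strains' estimates had opposite signs, which choosing genes by the interaction favours. Of the 18, 8 were called in 1 strain. Mal, a membrane protein of polarised epithelium, rose by 0.92 in B6 (adjusted p = 0.0197) with an A/J estimate of -0.05, and its interaction was -0.98 (SE 0.277). Mgea5, the enzyme that removes O-GlcNAc from proteins, rose by 0.35 in B6 (adjusted p = 0.021) and had an interaction of -0.42 (SE 0.101). Dact1, a regulator of Wnt signalling, fell by 0.51 in A/J (adjusted p = 0.00874; interaction -0.58, SE 0.143), as did the transporter Slc16a12, by 0.60 (adjusted p = 0.0155; interaction -0.65, SE 0.172). Dlgap1, a scaffold protein of synapses, fell by 1.42 in B6 (adjusted p = 0.0353; interaction 1.46, SE 0.423). March1 (-2.68), Klf11 (-0.61), Cpm (-0.69) and the transferrin receptor Tfrc (-0.39) lay below 0, and Zfp467 (0.44), the lymphatic growth factor Vegfc (0.52), Icosl (0.65), Purg (0.52), Klhl42 (0.36) and Fjx1 (0.41) above it. None of these 10 was called in either strain. Slc16a12 was at -0.39 and Cpm at -0.45 without both B6 BMS493 replicates 2 and 3.

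Myh8, the perinatal myosin heavy chain of skeletal muscle, was at 0.723, 0.303, 0.182 and 0.0567 CPM in A/J controls and at 1.67, 2.07, 0.791 and 2.42 CPM with BMS493. It rose by 2.41 in A/J (adjusted p = 0.0104), was at 0.197 to 0.722 CPM in B6 controls and 0.334 to 0.454 CPM in B6 with BMS493, and had an interaction of 2.58 (SE 0.727). Of 12 skeletal muscle markers 4 passed the filter, and Acta1 (1.79, SE 0.795) and Tnnt3 (0.93, SE 0.451) also reached an unadjusted p under 0.05, against 1.72% of all tested genes above 0. Genes this low can pass the filter through the group where they are high, which favours such a count. Myh8 and Acta1 were tested in 26 of the 28 alternatives. Acta1 was at 1.11 without B6 control replicate 3 and Tnnt3 at 0.57 without A/J BMS493 replicate 3. The 12 summed to between 2.95 and 4.76 CPM in A/J controls, 5.15 and 7.30 CPM in A/J with BMS493, 4.5 and 6.5 CPM in B6 controls, and 3.60 and 6.72 CPM in B6 with BMS493. The part of muscle tissue taken with the lung in these values was not tested.

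Immune signalling genes that fell in both strains gave no call in the interaction. Il33, an alarmin cytokine of barrier tissues, fell by 1.78 in B6 and by 2.13 in A/J (adjusted p = 0.00376 and 0.000299), with an interaction of -0.36 (SE 0.43), which ran from -0.67 without A/J BMS493 replicate 3 to -0.03 without A/J BMS493 replicate 2. Tnfsf13b, the B cell survival factor BAFF, fell by 1.64 in B6 and by 2.39 in A/J (adjusted p = 0.021 and 0.000123), with an interaction of -0.75 (SE 0.439). That value was -0.38 without B6 BMS493 replicate 1, -0.48 without A/J BMS493 replicate 2 and -1.26 without both B6 BMS493 replicates 2 and 3. Il1rl1, the receptor for Il33, had an interaction of 0.30 (SE 0.438), from 0.02 without B6 control replicate 3 to 0.50 without A/J control replicate 3. Plxdc1, an endothelial surface protein, rose in both strains, by 1.64 in B6 and by 1.28 in A/J (adjusted p = 0.00632 and 0.0045), with an interaction of -0.35 (SE 0.368), or -0.23 without A/J BMS493 replicate 4.

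No airway smooth muscle gene was called in the interaction. The 19 tested contractile genes had a median of -0.01, with medians of -0.13 in B6 and -0.11 in A/J. An unadjusted p under 0.05 was reached by 3 of the 19, against 3.68% of all tested genes: the tropomyosin Tpm1 (-0.24, SE 0.116), Actg2 (0.24) and the small heat shock protein Hspb7 (0.79, SE 0.376). Tpm1 was at -0.11 without B6 BMS493 replicate 3 and -0.05 without both replicates 2 and 3. Smooth muscle actin Acta2 fell on average over the strains by 0.27 (adjusted p = 0.00425) with an interaction of 0.07 (SE 0.101). Cnn1, calponin, fell on average by 0.29 (adjusted p = 0.0152; interaction 0.14, SE 0.128), and Myh11, the smooth muscle myosin, had an interaction of -0.05 (SE 0.134). Without A/J control replicate 4 Acta2 was at 0.01 and Cnn1 at 0.05, and without A/J BMS493 replicate 3 Acta2 was at 0.12. The muscarinic receptor Chrm2, which damps acetylcholine release at airway nerves, was at 5.61 ± 1.13 CPM in B6 controls and 9.69 ± 2.26 CPM with BMS493. In A/J it was at 9.33 ± 2.14 and 15.2 ± 0.653 CPM (mean ± SD, n = 4 each). It rose on average by 0.76 (adjusted p = 0.000693), with an interaction of -0.10 (SE 0.244). Chrm3, the receptor that contracts airway muscle, had an interaction of -0.20 (SE 0.397).

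Among the epithelial lists the libraries that stood apart moved the medians. Of 21 tested distal tip and surfactant genes 20 had an interaction below 0, as did 9123 of all 17276, with a median of -0.22, from 0.21 in B6 and 0.05 in A/J. Hopx (-0.78, SE 0.316), a gene of the alveolar lineage, and Etv5 (-0.22, SE 0.0948), a target of FGF signalling at the tips, had an unadjusted p under 0.05, against 1.96% of all tested genes below 0. None of the 21 was called in B6 (0.423% of all tested genes) or in A/J (0.486%). The median was -0.06 without B6 BMS493 replicate 2 and 0.03 without both replicates 2 and 3. Hopx was at -0.48 without replicate 2 and -0.27 without both. Foxj1 (-2.03, SE 0.743) led the 12 tested proximal airway genes, whose median was -0.13. That median was -0.38 without B6 control replicate 4, 0.01 without B6 BMS493 replicate 2, 0.14 without both B6 BMS493 replicates, -0.80 in library numbers 1 to 8 and -0.06 in 9 to 16. Foxj1 itself was at -1.28 without B6 BMS493 replicate 2 and -0.87 without both. Collagen chains (37 tested, median -0.06, 0.14 without both), macrophage markers (19 tested, median 0.07), lung mesenchyme (19 tested, 0.01) and cell cycle genes (30 tested, -0.02) lay close to 0. With each library left out these medians ran from -0.11 (collagens, without A/J control replicate 4) to 0.12 (macrophages, without B6 control replicate 2).

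**Figure D5:**
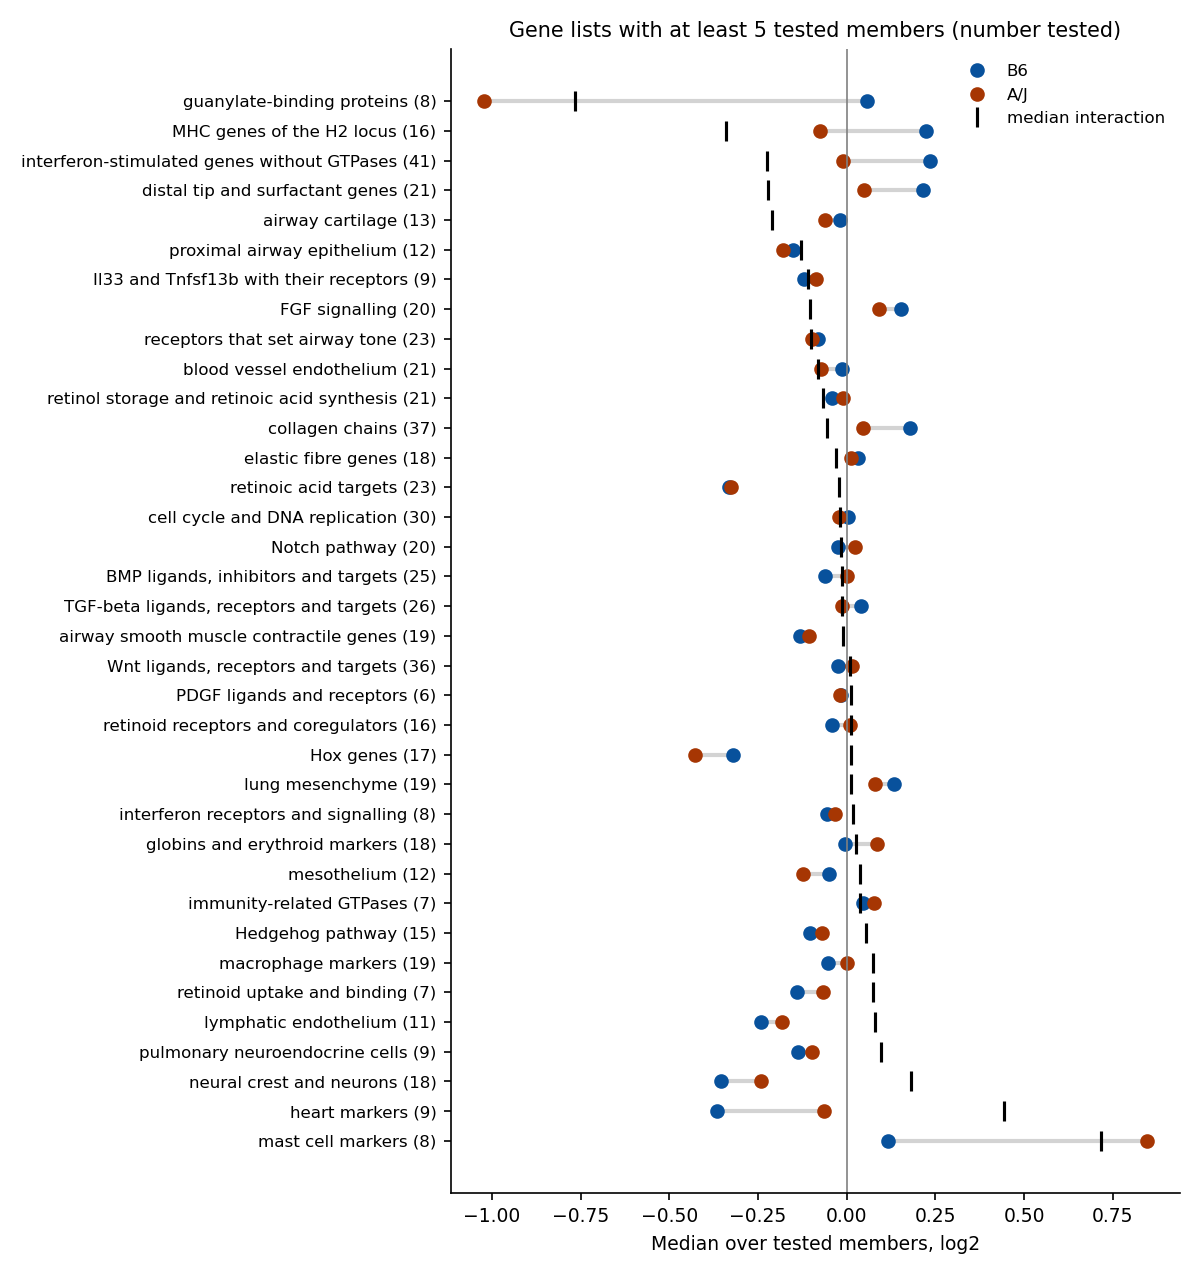
Median log2 fold change with BMS493 in B6 and in A/J, and median interaction, of the tested members of 36 gene lists with at least 5 tested members (number in brackets). The guanylate-binding proteins and the mast cell markers have the widest gaps between strains, and the retinoic acid targets and Hox genes lie below 0 in both strains. The guanylate-binding medians include Gbp2b, whose change in B6 cannot be read.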

How the data were processed

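Poly(A) RNA of 16 fetal lungs was sequenced, 4 per strain and treatment. The deposited files hold whole-number counts per gene identifier, 1 file per library. Per the submitters' processing notes, the authors used FastQC, cutadapt and STAR with build GRCm39; versions are not given in the sources used here. The unstranded column was taken, because the first strand held 51.0% to 52.0% of stranded assignments. Lines that name no gene (multimapping, ambiguous and the like) held 23.08% to 28.29% of fragments and were left out.

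Of 57180 identifiers 51884 matched GENCODE M21 names (98.88% of counts). Counts were fitted in edgeR 4.0.16 (R 4.3.3) with filterByExpr, TMM scaling and a robust quasi-likelihood fit with 1 coefficient per group over all 16 libraries (12 residual degrees of freedom), and p-values were adjusted by Benjamini-Hochberg over the 17276 genes kept; 39904 were removed. All 24 pairs of libraries within a group differed beyond counting error. Alternatives used limma 3.58.1, DESeq2 1.42.0 and sva 3.50.0, other filters and scaling, the stranded column, sets of library numbers and each library left out; dropping B6 BMS493 replicates 2 and 3 together was chosen after seeing the data.

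Named were every called gene, the 10 lowest p-values per direction (protein-coding, mean CPM of at least 1 in a group), list members and average-effect genes with an interaction p under 0.05, and a panel of 27, of which 1 is not reported here. The remaining tested members of the guanylate-binding and mast cell lists were named for completeness, after their values were seen. So were the untested mast cell markers Mrgprb1, Fcer1a and Ms4a2, while the other untested members of these lists were not named. Members and lists were chosen with earlier results of these data known. Shared sequence was counted in 50-base windows of GENCODE M21 transcripts. Promoters came from RefSeq.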

Additional observations from a re-analysis of the deposited data

Results flagged for a closer look

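The Gbp2 interaction of -2.16 is the difference between strains that passed the adjusted p-value (0.000736 by edgeR's quasi-likelihood test).

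For 45 named genes, 179 groups of 4 libraries were searched for a library far from the other three, by the gap to its neighbour as a share of the group's range. In 10 groups this share exceeded Dixon's 95% critical value, and chance alone gives about 1 in 20 groups. In B6 BMS493, Cyp26b1 was high in replicate 3 (2.47 CPM against 1.10 to 1.21 CPM, share 0.922), and Myh8 was high in replicate 1 (0.454 CPM against 0.334 to 0.345 CPM, share 0.91). In B6 controls, replicate 3 was low for Acta2 (556.4 CPM against 590.2 to 593.6 CPM, share 0.907) and Crabp2 (3.61 CPM against 4.26 to 4.38 CPM, share 0.844) and high for Stra6 (6.58 CPM against 5.88 to 5.91 CPM, share 0.958). Also in B6 controls, Aldh1a2 was low in replicate 1 (39.6 CPM against 46.5 to 47.9 CPM, share 0.83), Dhrs3 was high in replicate 2 (19.5 CPM against 17.0 to 17.3 CPM, share 0.902) and Rarb was high in replicate 4 (9.51 CPM against 7.89 to 8.16 CPM, share 0.833). In A/J, Chrm2 was low in BMS493 replicate 4 (14.2 CPM against 15.4 to 15.6 CPM, share 0.899) and Fjx1 was high in control replicate 3 (25.2 CPM against 22.7 to 23 CPM, share 0.884).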

How the results depend on the processing

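Counts of called genes moved with the method more than with scaling. The interaction was called for 2 genes by DESeq2, 2 by voom, 12 with no filter and 0 within each set of library numbers, where unadjusted p under 0.05 held for 928 and 388 genes; that count was 982 by voom and 1707 with no filter. The average effect was called for 397 genes by DESeq2 (276 lower, 121 higher), 401 by voom, 487 with no filter, 97 in library numbers 1 to 8 and 38 in 9 to 16. The B6 effect was called for 159, 125, 260, 19 and 4 genes in that order, and for 121 with 1 surrogate variable. The A/J effect was called for 158, 245, 178, 36 and 21 genes, 130 with 1 surrogate variable and 183 without both B6 BMS493 replicates 2 and 3. The share of average-effect genes with an interaction p under 0.05 was 21.4% with no filter and 22.7% and 26.3% in the sets. The sets hold fewer libraries; for the other changes the cause was not tested.

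With each library left out, the interaction was called for 1 to 2 genes (2 without B6 control replicate 3 or A/J BMS493 replicate 3), with 519 to 917 at unadjusted p under 0.05. The average effect was called for 165 to 371 genes (371 without B6 BMS493 replicate 1) and the share ran from 14% to 22.9%, the latter without the same library. The B6 effect was called for 27 to 201 genes: 201 without B6 BMS493 replicate 1, 32 without B6 BMS493 replicate 2, and 27, 28, 37 and 35 without B6 control replicates 1, 2, 3 and 4. The A/J effect was called for 52 to 121 genes, with 52 without A/J BMS493 replicate 3 and 55 without A/J control replicate 1 or 2.

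The replicate block left 1 gene called in the interaction (617 at unadjusted p under 0.05), 260 in the average effect, 71 in B6 and 92 in A/J. The shared numbers do not pair the samples: deviations of same-numbered libraries correlated between -0.147 and 0.148 in 24 pairs, 3 of them over 0.1, and a library correlated best with its own number in 12 of 48 comparisons.

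Of 101 single genes followed, 88 kept their sign under each alternative run and 13 did not; the cause was not tested. Without both B6 BMS493 replicates 2 and 3 the interaction was -0.0966 for Aldh1a2, 0.184 for Gbp7, 0.136 for Il33, 0.106 for Myh11, -0.0739 for Rdh10 and -0.0118 for Stra6, all reversed; without reversing it moved by over 1.5 times to 0.174 for Acta2, -0.221 for Chrm2, -0.641 for Chrm3, -0.687 for Crabp2, 0.0238 for Il1rl1 and 0.277 for Rarg. In library numbers 9 to 16 it was -0.0578 for Acta2, 0.276 for Chrm2, 0.179 for Chrm3, -0.28 for Gbp2b, 0.421 for Gbp7 and -0.128 for Rdh10, and in 1 to 8 it was -0.231 for Il1rl1. In the stranded column it was -0.0121 for Acat3, 0.0214 for Chrm2, 0.102 for Il33 and -0.0101 for Rdh10. Gbp2b was at -0.786 by DESeq2 and -1.93 by voom, and Myh11 at 0.0195 with 1 surrogate variable. With each library left out in turn the values ran from -0.235 to 0.0335 for Chrm2, -0.421 to 0.118 for Chrm3, -0.456 to 0.0198 for Crabp2, -0.75 to 0.471 for Gbp2b, -0.461 to 0.117 for Gbp7, -0.151 to 0.0488 for Myh11 and -0.0592 to 0.0914 for Rdh10. Of the 41 gene lists, the median interaction of 36 moved, by more than the spread between libraries, under some alternative.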

Other observations

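Gli1, a target and effector of Hedgehog signalling, fell by 0.39 in B6 (adjusted p = 0.021 by edgeR's quasi-likelihood test) with an A/J estimate of -0.03, and its interaction was 0.36 (adjusted p = 0.999), or 0.18 without both B6 BMS493 replicates 2 and 3. The Hedgehog co-receptor Cdon had an interaction of 0.20, and the 15 tested Hedgehog genes had a median of 0.05, which was -0.04 in library numbers 1 to 8 and 0.19 in 9 to 16. Of 23 tested receptors that set airway tone 4 had an unadjusted p under 0.05, against 3.68% of all tested genes, with Htr2b (-1.80) and Cysltr1 (-0.71), receptors for serotonin and leukotrienes, below 0, and Ptger3 (0.51) and Agtr2 (0.86), receptors for prostaglandin E and angiotensin, above it. None of these 4 receptors was called in the interaction. The 9 tested heart markers had a median of 0.44 (0.22 without A/J BMS493 replicate 1 and 0.73 without B6 BMS493 replicate 3), 0.87 in library numbers 1 to 8 and 0.08 in 9 to 16, with Actc1 (0.43, and 0.65 without both B6 BMS493 replicates 2 and 3) and Tnnc1 (1.01), a cardiac actin and a troponin, at an unadjusted p under 0.05, against 1.72% of all tested genes above 0.

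The 2 sets of library numbers share no library. Among 16940 genes tested in both, the interaction had the same sign in 50.3%. It had the same sign in 475 of the 884 genes (53.7%) with an interaction p under 0.05 in library numbers 1 to 8, and in 215 of the 374 (57.5%) with one in 9 to 16.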
